A study of Mus musculus with 6 samples.

Results

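The genes described here encode the machinery that lets a cell leave G1: the D-type cyclins (Ccnd1, Ccnd2, Ccnd3), their kinases (Cdk4, Cdk6), a pair of CDK inhibitors (Cdkn1b, encoding p27, and Cdkn2c, encoding p18) and the pocket proteins (Rb1, Rbl1, Rbl2). They were chosen by gene symbol, and all 10 were found among the 14003 genes of the deposited table. RNA was sequenced from wild-type cells labelled MC3T3-E1, a preosteoblast line derived from mouse calvaria. There were 3 untreated controls and 3 samples given 200 µM sulfasalazine, an anti-inflammatory drug, and the time label of all 6 is 24 h. Both groups share medium, genotype and batch label, and no vehicle is named for the controls. The labels do not say that the replicates were separate cultures, so p-values measure only the spread between these libraries, which may be technical.

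D-type cyclins bind and activate CDK4 and CDK6 in response to growth signals. The active kinases phosphorylate RB and its relatives p107 (Rbl1) and p130 (Rbl2), which then release E2F transcription factors and allow S-phase genes to be transcribed. INK4 inhibitors such as p18 bind CDK4 and CDK6 directly, while p27 binds cyclin-CDK complexes and is best known for restraining cyclin E with CDK2. In osteoblast precursors, as in other cells, this switch lies between proliferation and the exit from the cycle that accompanies differentiation.

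The libraries held 15980935 to 21579133 reads on the listed genes, recovered from the steps of the FPKM values (fragments scaled by gene length and by the mapped fragments of the library). Control replicate 3 had the fewest reads and scored -42.6 on the first principal component, against -65.3 and -63.2 for the other controls and 54.1 to 59.2 for the sulfasalazine libraries. The cell type label was checked against 12 osteoblast markers, of which 7 were in the table. Runx2, Spp1 and Sparc had a mean of 10 FPKM or more, while Sp7, Col1a1, Bglap and Phex were below 1 FPKM. The summed osteoblast level was 1549 to 2142 FPKM in controls and 889 to 1110 FPKM with sulfasalazine. Of 7 epithelial markers, Krt8, Krt18 and Krt19 had 10 FPKM or more, and Krt5 and Krt14 were below 1 FPKM. Cdh1 lay between these limits and Epcam was not analysed here. The summed epithelial level was 1293 to 1452 FPKM in controls and 1884 to 2093 FPKM with sulfasalazine. Of 3 chondrocyte markers, Sox9 had 10 FPKM or more, Col2a1 was below 1 FPKM and Acan was not analysed here. Of 4 macrophage and blood markers, Cd68 had 10 FPKM or more, Csf1r was below 1 FPKM and Ptprc and Adgre1 were not analysed here. The chondrocyte sum, mainly Sox9, was 153 to 166 FPKM in controls and 27.2 to 40.9 FPKM with sulfasalazine. The macrophage sum, mainly Cd68, was 31.7 to 56.2 and 16.3 to 27.7 FPKM. Each of these sums rests on 1 gene and does not show cells of that kind. The endothelial markers Pecam1 and Cdh5 reached at most 0.139 FPKM together. The part of these shifts in the results that follow was not tested. In bulk RNA, fewer cells of a kind and less RNA per cell cannot be told apart.

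All 10 genes passed the filter, which kept genes with 1 FPKM or more in 3 or more libraries. With sulfasalazine 5 of them rose, 4 fell and 1, Rbl1, was not called (limma on log2(FPKM + 1), Benjamini-Hochberg adjusted p under 0.05 over 10338 genes tested). The same rule called 66.5% of all tested genes, 37.2% as higher and 29.3% as lower. A count of 9 called among 10 is therefore read against a background in which most genes were called. The median log2 fold change was 0.09 over the 10 genes and 0.08 over all tested genes. The groups did not overlap for 9 of the 10 genes, as they did not for 71.4% of tested genes. The changes ran in opposite directions inside each family except for the kinases, which both fell, and the inhibitors, which both rose.

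**Figure D1:**
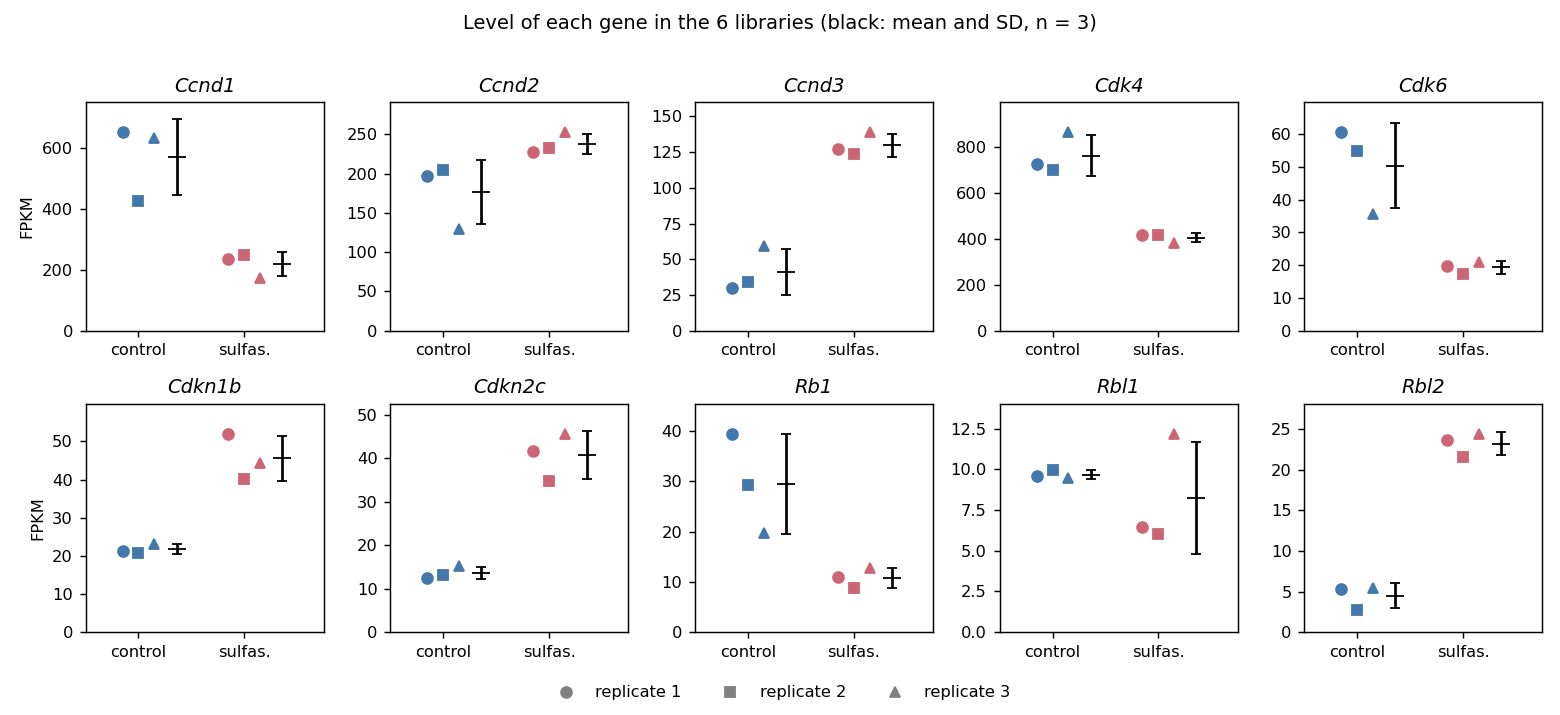
FPKM of the 10 genes (y axis, from 0, scaled separately in each panel) in each control and sulfasalazine library (x axis, "sulfas."), with symbols for the replicate number and the mean and SD of 3 libraries in black. The groups are separate in every panel except that of Rbl1, where sulfasalazine replicate 3, at 12.2 FPKM, lies above the controls and the other sulfasalazine libraries lie below them.

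Among the D-type cyclins, Ccnd1 fell while Ccnd3 and, less firmly, Ccnd2 rose. Ccnd1, encoding cyclin D1, the family member most closely tied to mitogen signalling (chromosome 7, 144929931 to 144939925, minus strand, GRCm38), had 653, 428 and 634 FPKM in the 3 controls, in replicate order as for all values below. The sulfasalazine libraries had 237, 248 and 174 FPKM. Every sulfasalazine value lay below every control value, and the means of 572 ± 125 and 219 ± 40.1 FPKM (SD, n = 3 per group) differed 2.60-fold. The log2 fold change was -1.37 (SE 0.20, limma adjusted p = 0.00051). Ccnd1 ranked 173 by mean level among the 14003 genes in controls and 490 with sulfasalazine, so its transcript remained abundant after the fall. Of its exonic bases, 23.4% lie in LTO1 on the opposite strand, and whether reads were counted by strand is not stated in the labels or headers. LTO1 itself moved the other way, from 7.85 ± 0.939 to 18.6 ± 1.32 FPKM (log2 fold change 1.15, limma adjusted p = 0.00024).

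Ccnd3, encoding cyclin D3 (chromosome 17, 47505051 to 47599691, plus strand), rose from control values of 29.8, 34.1 and 59.5 FPKM to 127, 124 and 139 FPKM. The highest control was replicate 3, and it was still below the lowest sulfasalazine library. The means of 41.1 ± 16.0 and 130 ± 8.03 FPKM give a log2 fold change of 1.70 (SE 0.23, limma adjusted p = 0.00033), which became 1.99 without control replicate 3. Overlap with neighbours is small, at 4.11% of its exonic bases (mainly Bysl).

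Ccnd2, encoding cyclin D2 (chromosome 6, 127125162 to 127152193, minus strand), had control values of 197, 204 and 130 FPKM and sulfasalazine values of 228, 233 and 253 FPKM. Control replicate 3 was the lowest library and accounted for much of the gap between the means of 177 ± 41.0 and 238 ± 13.1 FPKM. The log2 fold change of 0.45 (SE 0.18, 95% interval 0.05 to 0.86) passed narrowly (limma adjusted p = 0.048) and was 0.25 without that library (adjusted p = 0.038). The call was lost under 8 of 15 alternatives, at adjusted p = 0.061 to 0.13, among them median-of-ratios scaling (log2 fold change 0.33, adjusted p = 0.13) and the removal of any 1 sulfasalazine library. In the authors' deposited table its log2 fold change is 0.33 and its adjusted p 0.15.

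Since FPKM is per length, the 3 cyclin transcripts could be set beside each other. Ccnd1 made up 74.2%, 64.2% and 77.0% of the summed D-type cyclin FPKM in the controls, and 40.0%, 41.0% and 30.7% with sulfasalazine. The share of Ccnd3 went from 3.39%, 5.12% and 7.22% to 21.5%, 20.4% and 24.6%. The share of Ccnd2 went from 22.4%, 30.6% and 15.8% to 38.5%, 38.5% and 44.7%. Each share was separate between the groups, and the exact permutation test gave p = 0.1 (two-sided), the smallest that 3 against 3 allows, for each. The summed control levels were 880, 666 and 823 FPKM and the summed sulfasalazine levels 592, 605 and 565 FPKM, which are also separate (exact permutation p = 0.1). The loss of Ccnd1 transcript was thus offset only in part by the rise of Ccnd2 and Ccnd3.

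The scale of these shares depends on the gene length used. The length implied by the authors' FPKM was compared with the mean length of a gene's annotated transcripts. Their ratio lay within 1% of its median, 1.021, for 97.5% of 9714 genes. Short annotated fragments lower that mean length. It is 1994.3 bases for Ccnd1, 1638.6 for Ccnd2 and 1180.8 for Ccnd3, against longest transcripts of 3740, 6330 and 3858 bases. With recovered reads per length of the longest transcript, an alternative chosen after the data were seen, the Ccnd1 share was 83.4% ± 4.51 in controls and 53.3% ± 6.20 with sulfasalazine (SD, n = 3 per group). The Ccnd3 share was then 3.50% ± 1.22 and 18.3% ± 2.54. The shift away from Ccnd1 was present on both scales, but its direction was fixed in advance. A gene has the same length in every library, and Ccnd1 fell against both other cyclin genes. The second scale is therefore no separate support for the shift. Ccnd1 remained the largest of the 3 with sulfasalazine on the second scale, whereas Ccnd2, at 40.6% ± 3.57, stood beside Ccnd1, at 37.2% ± 5.68, on the FPKM scale.

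**Figure D2:**
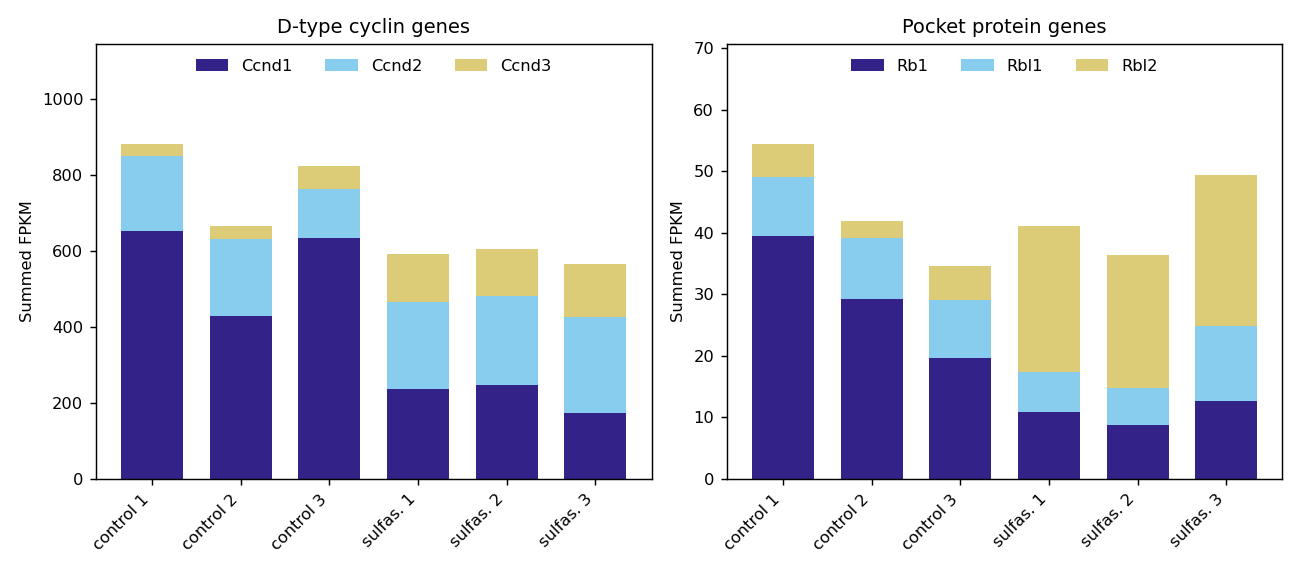
FPKM summed over the D-type cyclin genes (left) and over the pocket protein genes (right) in each library, as stacked bars from 0 with 1 colour per gene. Cyclin bars reach 666 to 880 FPKM in controls and 565 to 605 FPKM with sulfasalazine with a smaller Ccnd1 part, and the Rb1 part shrinks while that of Rbl2 grows.

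Both kinase genes fell. Cdk4 (chromosome 10, 127063534 to 127067920, plus strand), the more abundant of them, went from 724, 697 and 863 FPKM in the controls to 417, 414 and 381 FPKM. The groups were far apart relative to their spread, with means of 761 ± 89.0 and 404 ± 20.2 FPKM. The log2 fold change was -0.91 with an SE of 0.12 (limma adjusted p = 0.00035). Cdk4 was the most abundant transcript of the 10 in each group. Of its exonic bases 19.7% lie in Tspan31 on the opposite strand, a gene at a similar level, which stood at 496 ± 30.5 and 626 ± 21.7 FPKM (log2 fold change 0.34, limma adjusted p = 0.025).

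Cdk6 (chromosome 5, 3341485 to 3531008, plus strand) went from 60.5, 54.8 and 35.7 FPKM to 19.6, 17.1 and 21.1 FPKM. Control replicate 3 was again the control closest to the treated libraries. The means of 50.4 ± 13.0 and 19.3 ± 1.99 FPKM give a log2 fold change of -1.31 with an SE of 0.20 (limma adjusted p = 0.00062). The log2 ratio of Cdk4 to Cdk6 was 3.58, 3.67 and 4.60 in the controls and 4.41, 4.59 and 4.17 with sulfasalazine. These overlap, and the exact permutation test gave p = 0.4 (two-sided), so a difference in the extent of the 2 falls was not detectable with 3 libraries a group. Without replicate 3 of both groups the mean difference in this ratio went from 0.45 to 0.88, so it depends on those libraries.

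The stretches of 250 bases upstream of the RefSeq starts of the 2 kinase genes (GRCm38.p6, plus strand) are shown because both genes fell and both stretches hold the E-box CACGTG, the word bound by MYC and other basic helix-loop-helix factors, here in capitals.
Cdk4, chr10:127063285-127063534: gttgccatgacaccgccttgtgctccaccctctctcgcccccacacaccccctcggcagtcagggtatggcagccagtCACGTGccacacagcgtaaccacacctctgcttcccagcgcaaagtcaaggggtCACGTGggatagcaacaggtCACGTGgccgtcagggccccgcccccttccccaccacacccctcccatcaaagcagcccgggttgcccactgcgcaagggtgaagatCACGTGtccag
Cdk6, chr5:3343643-3343892: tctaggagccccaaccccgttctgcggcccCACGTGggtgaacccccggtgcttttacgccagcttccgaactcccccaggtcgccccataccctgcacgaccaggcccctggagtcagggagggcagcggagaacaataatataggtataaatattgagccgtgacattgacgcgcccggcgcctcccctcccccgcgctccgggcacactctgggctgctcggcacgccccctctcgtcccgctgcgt
Cdk4 has 4 matches, at positions -172, -118, -98 and -11 counted from the start, and Cdk6 has 1, at -220. At least 1 match occurs in 6.02% of the 32851 promoter windows of this length, and 7 windows in all have 4 or more. A match describes the letters and shows neither binding nor a cause of the falls.

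Both CDK inhibitors rose. Cdkn1b (chromosome 6, 134920401 to 134925513, plus strand) read 21.3, 20.8 and 23.2 FPKM in control libraries and 52.0, 40.3 and 44.3 FPKM in treated ones. The controls were tight and every treated library was well above them, with means of 21.8 ± 1.24 and 45.5 ± 5.95 FPKM. The log2 fold change was 1.03 with an SE of 0.13 (limma adjusted p = 0.00023). The authors' deposited table gives it an adjusted p of 3.2e-07 and a log2 fold change of 0.97, just short of the absolute value of 1 that their selection required. The protein p27 is controlled largely by its turnover, which RNA does not show.

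Cdkn2c (chromosome 4, 109660876 to 109667189, minus strand) went from 12.4, 13.2 and 15.2 FPKM to 41.8, 34.7 and 45.6 FPKM. Its means of 13.6 ± 1.44 and 40.7 ± 5.53 FPKM give a log2 fold change of 1.51 (SE 0.15, limma adjusted p = 6.1e-05). Neither inhibitor gene shares exonic bases with another gene, and no word of 50 bases in their transcripts was found in another gene. The log2 ratio of summed D-type cyclin FPKM to Cdkn1b FPKM was 5.37, 5.00 and 5.15 in the controls and 3.51, 3.91 and 3.67 with sulfasalazine. The cyclin transcripts thus lost ground to that of p27 in every treated library, by a mean of -1.48 on the log2 scale (exact permutation p = 0.1, the smallest possible). Per longest transcript this difference was -1.78. The ratio leaves out Cdkn1a, another CDK inhibitor gene, which fell from 996 ± 351 to 158 ± 8.90 FPKM. It therefore does not describe the balance of cyclin and inhibitor transcripts as a whole.

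The pocket protein genes changed in different directions. Rb1, encoding the retinoblastoma protein (chromosome 14, 73183673 to 73325822, minus strand), went from 39.4, 29.2 and 19.7 FPKM in the controls to 10.9, 8.73 and 12.7 FPKM. The controls were uneven, with replicate 3 lowest, but none overlapped the treated libraries. The means of 29.4 ± 9.89 and 10.8 ± 2.00 FPKM give a log2 fold change of -1.33 (SE 0.25, limma adjusted p = 0.0019), which was -1.58 without control replicate 3. Other genes, mainly Rcbtb2 on the opposite strand, cover 14.9% of its exonic bases. Rcbtb2 itself, at 4.81 ± 1.16 and 3.37 ± 1.02 FPKM, was not called (limma adjusted p = 0.13).

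Rbl2, encoding p130, the pocket protein typical of quiescent cells (chromosome 8, 91070057 to 91123844, plus strand), had the largest change of the 10. It rose from 5.31, 2.74 and 5.48 FPKM to 23.7, 21.6 and 24.4 FPKM. The treated libraries were within a narrow range, far above the controls, with means of 4.51 ± 1.54 and 23.2 ± 1.47 FPKM. The log2 fold change was 2.18 (SE 0.23, limma adjusted p = 8.3e-05), and 3.6% of tested genes had a larger rise. Reads behind these values numbered 119 to 217 in the controls and 900 to 1070 with sulfasalazine. Some 21.0% of its exonic sequence is shared, mainly with Gm45464 on the opposite strand, which was not analysed here.

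Rbl1, encoding p107, itself a known E2F target (chromosome 2, 157145893 to 157204534, minus strand), read 9.58, 9.98 and 9.46 FPKM in control libraries and 6.46, 6.04 and 12.2 FPKM in treated ones. The treated libraries fell on both sides of the tight controls, and the log2 fold change of -0.27 was not called (95% interval -0.83 to 0.29, limma adjusted p = 0.35). Without sulfasalazine replicate 3 it was -0.56 and passed (adjusted p = 0.019), so that library decides the call. The same library was the highest of the 3 treated libraries for 16 of 16 E2F target genes, against 55.3% of all tested genes.

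The 250 bases upstream of the RefSeq start of Rbl1 (GRCm38.p6, minus strand) are shown for the E2F word they hold, in capitals.
Rbl1, chr2:157204535-157204784: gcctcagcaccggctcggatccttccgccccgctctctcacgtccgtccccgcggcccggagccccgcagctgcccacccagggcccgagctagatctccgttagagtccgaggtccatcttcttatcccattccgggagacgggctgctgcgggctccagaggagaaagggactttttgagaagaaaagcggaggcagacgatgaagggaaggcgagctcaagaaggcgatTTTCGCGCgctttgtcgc
The words TTTCCCGC, TTTCGCGC, TTTGCCGC and TTTGGCGC were searched on both strands, and the match TTTCGCGC lies at position -18 from the start. Such a word occurs in 1.86% of promoter windows and in none of the other member windows. In all, 9 windows of 7 of the 10 genes had an entry, and those of Ccnd1, Ccnd2 and Rb1 were not used here. A search for the FOXO word GTAAACA on both strands, found in 3.17% of windows, matched only 1 of the Ccnd3 windows, and the AP-1 word TGANTCA, in 6.75% of windows, matched none.

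Levels of the 3 pocket protein genes changed order. In FPKM the controls ran Rb1, Rbl1, Rbl2, with the 3 ranges separate from each other. With sulfasalazine Rbl2 was first, and Rb1 (8.73 to 12.7 FPKM) and Rbl1 (6.04 to 12.2 FPKM) overlapped. The log2 ratio of Rb1 to Rbl1 plus Rbl2 went from 1.40, 1.20 and 0.40 to -1.47, -1.66 and -1.52, with a mean difference of -2.55 (exact permutation p = 0.1). Per longest transcript the control ratios were 0.44, 0.18 and -0.56 and the treated ratios -2.26, -2.46 and -2.37. The shift was similar on that scale, but its direction could not differ, since Rb1 fell against each of the other 2 genes. Whether Rb1 outweighed the other 2 in controls did depend on the scale, as control replicate 3 was below 0.

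Over all 10 genes the controls ran, by mean FPKM, from Cdk4, Ccnd1, Ccnd2, Cdk6, Ccnd3, Rb1, Cdkn1b and Cdkn2c to Rbl1 and Rbl2. Neighbours whose ranges overlapped were Cdk6 and Ccnd3, Ccnd3 and Rb1, and Rb1 and Cdkn1b. With sulfasalazine the order was Cdk4, Ccnd2, Ccnd1, Ccnd3, Cdkn1b, Cdkn2c, Rbl2, Cdk6, Rb1 and Rbl1. There Ccnd2 overlapped Ccnd1, Cdkn1b overlapped Cdkn2c, and Rb1 overlapped Rbl1. In FPKM, Cdkn1b and Cdkn2c stood above Cdk6 in every treated library and below it in every control. The order of different genes depends on the length used. In control replicate 3, Cdk6 had 1727 reads over a longest transcript of 11525 bases. Cdkn1b had 1101 reads over 4552 bases there, and Cdkn2c 445 over 2471. Per longest transcript Cdk6 was thus the lowest of them in that control.

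**Figure D3:**
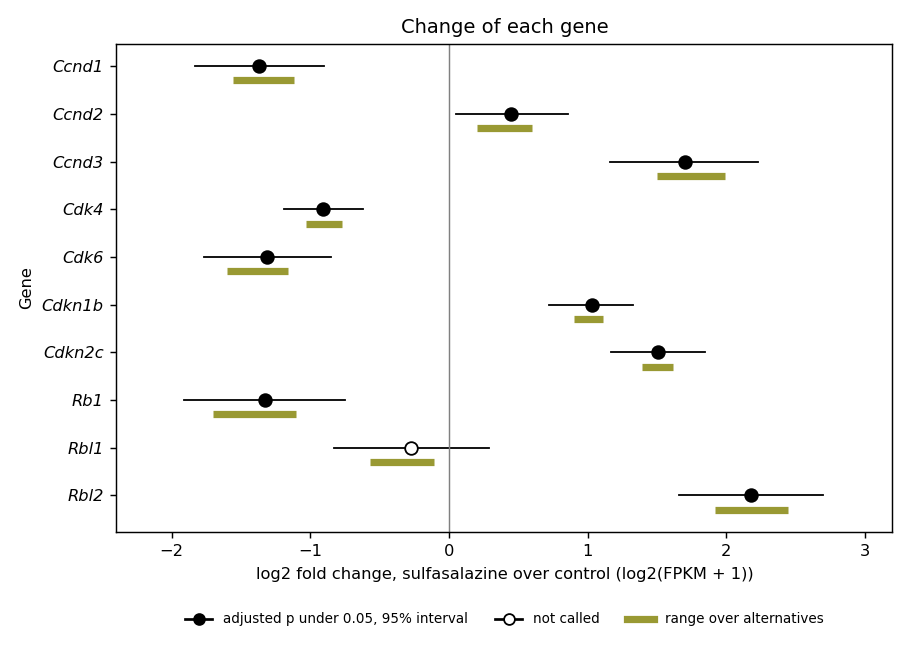
Log2 fold change of each gene, sulfasalazine over control, on the log2(FPKM + 1) scale (x axis), as a point with its 95% interval, filled where the adjusted p was under 0.05. The bar below each point spans the values under 15 alternatives, and no bar crosses 0. The filled points run from -1.37 for Ccnd1 to 2.18 for Rbl2.

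By the authors' deposited table, 8 of the 10 genes have an adjusted p under 0.05, as do 55.0% of its genes. In that deposited table of the authors, 7 of the 10 also pass an absolute log2 fold change of 1, as do 34.9% of its genes. The sign was that of the limma fit for all 10. Control replicate 3 was the control nearest to the sulfasalazine mean for 6 of the 9 called genes (Ccnd3, Cdk6, Cdkn1b, Cdkn2c, Rb1 and Rbl2). The share of all called genes for which this held was 60.3%. Without replicate 3 of both groups 4 genes rose and 5 fell, since Ccnd2 lost its call (adjusted p = 0.061) and Rbl1 gained one (log2 fold change -0.57, adjusted p = 0.0043).

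Other genes of the G1/S pathway were taken from 8 lists of textbook partners, with 53 of 56 listed symbols in the table and 52 tested. Cdkn2a and Cdkn2b were not analysed here, and Skp1 was listed a second time as Skp1a, its older symbol, under which the table holds it. Of these 9 rose, 17 fell and 26 were not called, with a median log2 fold change of -0.13. Among all tested genes 37.2% were called higher and 29.3% lower, and 66.5% in either direction, so fewer of these genes were called than the background share and more of those called were lower.

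Of the other CDK inhibitors, Cdkn1a, encoding p21, a p53 target, fell from 1400, 817 and 771 FPKM to 168, 157 and 150 FPKM, a log2 fold change of -2.59 with an SE of 0.22 (limma adjusted p = 3.2e-05). It therefore moved against Cdkn1b. Cdkn2d, encoding the INK4 inhibitor p19, rose like Cdkn2c, from 3.73, 2.62 and 6.34 FPKM to 13.4, 11.0 and 15.4 FPKM (log2 fold change 1.50, adjusted p = 0.0014). Cdkn1c was at or below 0.0892 FPKM in every library and was not tested.

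All 3 subunits of the CDK-activating kinase, which phosphorylates the activation loop of CDK4, CDK6 and CDK2, fell. Of all tested genes 29.3% were called lower. Ccnh went from 75.3 ± 4.25 to 29.2 ± 3.46 FPKM (log2 fold change -1.34), Mnat1 from 35.4 ± 1.43 to 15.1 ± 0.280 FPKM (-1.18) and Cdk7 from 24.2 ± 1.35 to 15.7 ± 1.21 FPKM (-0.59, limma adjusted p = 0.0035). The phosphatase gene Cdc25a, at 11.2 ± 0.125 and 12.6 ± 1.56 FPKM, was not called.

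Cyclin E is the partner of CDK2 and acts after CDK4 and CDK6. Of its genes, Ccne1 rose from 6.75 ± 2.36 to 13.6 ± 1.81 FPKM in RNA (log2 fold change 0.96, limma adjusted p = 0.0087). Ccne2, Cdk2 and Ccna2 were not called, with log2 fold changes of 0.44, 0.34 and -0.14. Ccne2 passed without sulfasalazine replicate 2 (0.63, adjusted p = 0.034), and Ccna2 passed as lower without replicate 3 of both groups (-0.69, adjusted p = 0.0046). Ccna2, encoding cyclin A2 of S phase, stood at 13.7, 10.9 and 30.8 FPKM in the sulfasalazine libraries, a spread wider than that of the controls at 18.6, 22.5 and 15.1 FPKM.

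The E2F and DP factors split 3 higher and 2 lower of 10, which together is below the background share of 66.5% called. The DP subunit Tfdp2 rose from 0.738 ± 0.0461 to 7.90 ± 2.14 FPKM (log2 fold change 2.33, limma adjusted p = 2.6e-05). Its controls were all below 1 FPKM, so Tfdp2 passed the filter only through the sulfasalazine libraries, which favoured a call in advance. With no filter its limma adjusted p was 0.00013. Its more abundant relative Tfdp1 fell from 58.7 ± 5.32 to 45.8 ± 1.20 FPKM (-0.35, adjusted p = 0.021). The repressor E2f6 rose from 13.9 ± 2.16 to 33.5 ± 3.42 FPKM. E2f4, the usual partner of p130, fell from 120 ± 10.2 to 70.5 ± 1.46 FPKM (-0.76, adjusted p = 0.00032), opposite to Rbl2. The activator E2f1 rose from 7.92 ± 2.67 to 16.1 ± 5.68 FPKM (0.93, adjusted p = 0.018), a call lost without control replicate 1 or 2 or sulfasalazine replicate 3 (adjusted p = 0.057 to 0.067). E2f2, E2f3, E2f5, E2f7 and E2f8 were not called, with log2 fold changes of -0.21 to 0.43. Without control replicate 3, E2f2 passed as higher (0.84, adjusted p = 0.0097) and E2f5 as lower (-0.38, adjusted p = 0.044). The call of Tfdp1 was lost without control replicate 2 or sulfasalazine replicate 1 or 2 (adjusted p = 0.058 to 0.088).

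In the MuvB core, which p107 or p130 joins with E2F to form the repressive DREAM complex, Lin54 and Lin9 fell and Lin37 rose. That is 1 higher and 2 lower of 5, beside 37.2% higher and 29.3% lower of all tested genes. Lin54, the DNA-binding subunit, went from 12.5 ± 3.93 to 3.76 ± 1.29 FPKM (log2 fold change -1.49), Lin9 from 6.72 ± 1.59 to 2.36 ± 0.772 FPKM (-1.20) and Lin37 from 17.7 ± 4.37 to 39.9 ± 1.77 FPKM (1.15, limma adjusted p = 0.00052). Lin52 and Rbbp4 were not called, though Lin52 passed as lower without control replicate 3 (-0.70, limma adjusted p = 0.00083) and under 2 other scalings.

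Of the 8 tested genes for the turnover of D cyclins, cyclin E and p27, 6 were not called, while 66.5% of all tested genes were called. Skp2, the recognition subunit of the ligase for p27, was among those 6 (4.50 ± 0.117 and 4.35 ± 1.45 FPKM). Skp1a, a shared subunit of such ligases, rose from 72.3 ± 4.82 to 152 ± 9.84 FPKM (log2 fold change 1.07, limma adjusted p = 6e-05). Cks1b, the cofactor of Skp2, fell from 132 ± 35.8 to 78.6 ± 21.0 FPKM (-0.73, adjusted p = 0.027), a call lost without control replicate 2 or 3 or sulfasalazine replicate 1 or 2 (adjusted p = 0.061 to 0.09). Without control replicate 3, Gsk3b and Cul1 passed as lower (log2 fold changes -0.72 and -0.39), Gsk3b also under median-of-ratios scaling (-0.59, adjusted p = 0.033).

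FOXO factors, known activators of Cdkn1b and Rbl2, moved unequally. Foxo4 rose from 3.50 ± 1.22 to 21.8 ± 0.382 FPKM (log2 fold change 2.37, limma adjusted p = 3.5e-05), and Foxo1 was not called. Foxo3, the most abundant of them, fell from 102 ± 29.7 to 69.6 ± 0.894 FPKM (-0.51, adjusted p = 0.044). That call was lost under 8 alternatives, and the value was -0.29 without control replicate 1 (adjusted p = 0.099).

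Classical E2F targets had 7 lower and 1 higher of 16, with a median log2 fold change of -0.40, beside 29.3% lower and 37.2% higher of all tested genes. The replication licensing genes Mcm3 and Cdt1 fell from 105 ± 11.0 to 36.6 ± 14.7 FPKM and from 93.6 ± 26.8 to 31.1 ± 9.91 FPKM (log2 fold change -1.56 for each). Pola1, a DNA polymerase subunit, fell by 1.22 on the log2 scale. Rrm1 fell from 65.5 ± 8.84 to 34.2 ± 11.2 FPKM (-0.96, limma adjusted p = 0.0045). Cdc6, which loads the licensing helicase, rose from 2.35 ± 1.05 to 6.43 ± 2.93 FPKM (1.13, limma adjusted p = 0.014). Pcna, Rrm2, Tk1, Tyms, Mybl2, Mcm4, Mcm6 and Mcm7 were not called. Without control replicate 3, Mcm6 and Mcm7 passed as higher (1.01, adjusted p = 0.01, and 0.59, adjusted p = 0.034), and without sulfasalazine replicate 3, Mcm4 passed as lower (-0.48, adjusted p = 0.022). Counts were 1 higher and 8 lower without sulfasalazine replicate 3, and 3 higher and 5 lower without control replicate 3. With a filter of 5 FPKM, which neither Cdc6 nor Pola1 passed, they were 0 higher and 6 lower of 14. The calls of Mcm2 (-0.53) and Mcm5 (-1.05) were lost without any 1 of control replicate 2 or 3 or sulfasalazine replicate 1 or 2 (adjusted p = 0.056 to 0.12), and that of Mcm5 also with no filter (adjusted p = 0.068).

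**Figure D4:**
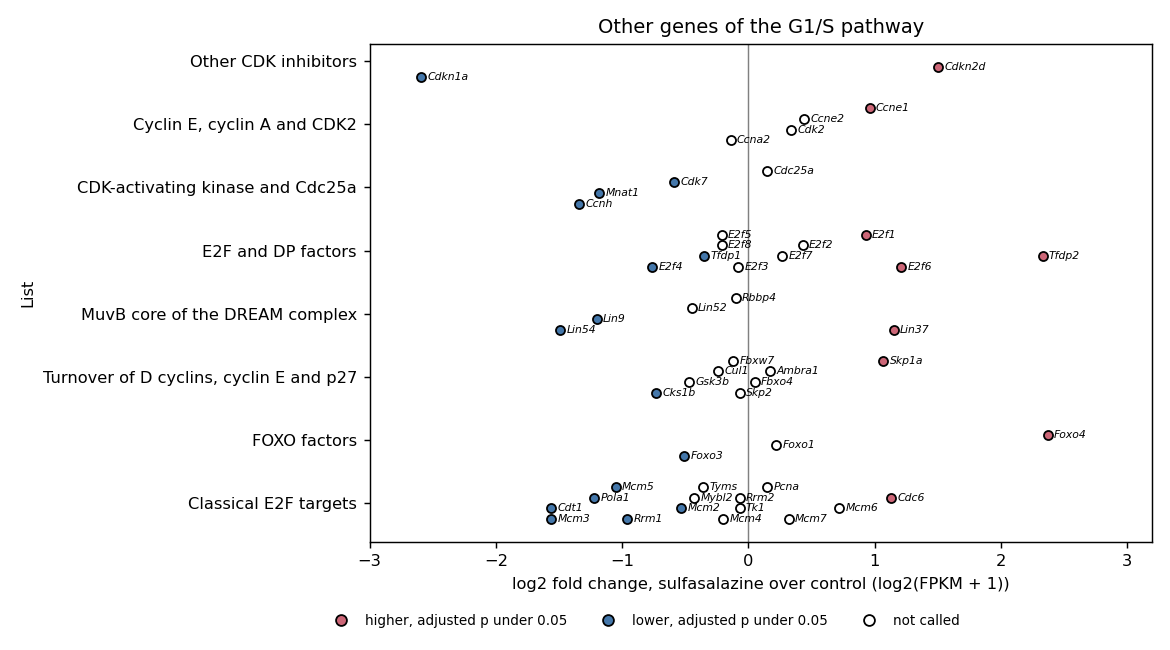
Log2 fold change (x axis, log2(FPKM + 1) scale) of 51 of the 52 tested genes of 8 G1/S lists (y axis), 1 point per gene, red for higher, blue for lower and open for not called, spread vertically only for legibility. The points run from -2.59 for Cdkn1a to 2.37 for Foxo4, and 16 are blue against 9 red.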

How the data were processed

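The authors deposited FPKM per library in 1 table, per the file headers. It also holds a library-adjusted read signal, the authors' log2 fold change and their p-values, per the file headers. The submitters' processing notes name the build mm39 and, with no roles, HTSeq 0.13.5, edgeR, HISAT2 2.2.1 and fastp 0.23.0. Of 13994 genes matched to GENCODE M21 (GRCm38), 13861 had its start and end, so coordinates are GRCm38. Titles gave group and replicate.

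The 10 genes, the lists and the tests were chosen with earlier results of these data known. Genes reaching 1 FPKM in 3 or more libraries were tested as log2(FPKM + 1) with limma 3.58.1 (R 4.3.3; lmFit, eBayes with an intensity trend, two-sided, Benjamini-Hochberg over 10338 genes, threshold 0.05), which understates changes of low genes. Every member was to be named, and any gene of lists of up to 10 could be. From longer lists it was the 4 largest called changes and the genes not called or moving the other way. Of the listed genes, 1 is counted but not reported here. Mcm2, Mcm5 and Rrm1 were named outside that rule, after their values were seen. Whole reads fitted the FPKM steps within 0.001 reads for 100.0% of genes, and for 1628 genes, none a member, more than 1 set was possible, so the nearest to the deposited signal was taken. Ratios per library were computed in Python 3.11.15 and tested by exact permutation. The limma step was tested on simulated data with few changed genes and no library standing apart. That test does not cover the conditions of these data. Promoter sequences are from RefSeq. Alternatives were other pseudocounts, filters, scalings and trend settings, the replicate block, libraries left out, voom on the recovered reads and 2 other gene lengths.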

Additional observations from a re-analysis of the deposited data

How the results depend on the processing

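The calls of 8 of the 10 genes held under all 15 alternatives, and the exceptions were Ccnd2 and Rbl1. Median-of-ratios scaling moved the median log2 fold change of all tested genes from 0.083 to -0.034. It called 3437 genes higher and 3530 lower, and quantile normalization 3507 and 3549, against 3846 and 3032 in the reported fit, so the excess of higher calls depends on the scaling. The replicate block left 4 higher and 4 lower of the 10, since Ccnd2 was lost (adjusted p = 0.069). It called 3649 of all tested genes higher and 2771 lower. Of the listed genes, Tfdp1 was lost (adjusted p = 0.053) and Mcm6 gained as higher (0.72, adjusted p = 0.0078). Limma voom on the recovered reads called 3889 higher and 3021 lower. Same-numbered libraries did not deviate together (r = 0.04, -0.19 and -0.17), and no library correlated best with its own number. With replicate 3 of both groups left out, the difference in the log2 ratio of Cdk4 to Cdk6 was 0.88. Per longest transcript the differences were 14.8 percentage points for the Ccnd3 share and -1.78 for the log2 ratio of D-type cyclins to Cdkn1b. Per all exonic bases joined they were 9.62 and -1.92, and -25.7 for the Ccnd1 share. These follow from the lengths by construction.

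In 10 listed genes, none of them called, the sign changed under some setting. Median-of-ratios scaling gave Fbxo4 -0.07. Quantile normalization gave E2f7 -0.03, Fbxo4 -0.01, Cdc25a -0.02 and Foxo1 -0.07. Leaving replicate 3 of both groups out gave E2f7 -0.34, Fbxo4 -0.01, Tk1 0.00 and Pcna -0.07. Leaving 1 library out in turn gave E2f3 -0.22 to 0.03, Rrm2 -0.38 to 0.13, Tk1 -0.39 to 0.30, Skp2 -0.29 to 0.05, Ccna2 -0.56 to 0.15, E2f7 -0.12 to 0.52 and Fbxo4 -0.02 to 0.15. The cause was not tested. The fewest reads behind a member value were 119, for Rbl2 in control replicate 2, and 3 libraries a group limit the precision of every value.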
